A study of Homo sapiens with 15 samples.

Results

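The proteasome subunit genes of A375 cells, a human melanoma line with an activating BRAF mutation, are described here across 5 groups of 3 RNA-seq libraries. Members were taken by symbol as the genes named PSMA, PSMB, PSMC, PSMD, PSME or PSMG with a number, without PSMB8 and PSMB9. The rule found 43 genes of the 18322 in the table, 7 PSMA, 8 PSMB, 6 PSMC, 14 PSMD, 4 PSME and 4 PSMG, and all 43 passed the filter on low values. The 15 PSMA and PSMB genes are called the 20S core and the 20 PSMC and PSMD genes the 19S cap.

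The groups were resistant cells with a first or a second short hairpin against MYC (libraries labelled shMYC1 and shMYC2), cells resistant to PLX4720, an inhibitor of mutant BRAF (Resistant), parental cells with MYC T58A, a slowly degraded form of the transcription factor MYC, and the parental line (Parental). The series describes the resistant cells as a single clonal population, so no variation between independent resistant populations enters the tests. It calls the libraries of a group biological triplicates. Neither the drug's presence at harvest nor the delivery of MYC T58A and the hairpins is stated in the labels. The comparisons ask how these genes differ in cells that have become resistant, in parental cells with MYC T58A, and in resistant cells under each hairpin label.

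The proteasome degrades proteins that carry ubiquitin chains. Its 20S core is a barrel of alpha rings (PSMA) and beta rings (PSMB), and the catalytic threonines lie inside on the beta subunits PSMB5, PSMB6 and PSMB7. The 19S cap binds ubiquitin, removes it, and unfolds the substrate with a ring of ATPases (PSMC) held by further subunits (PSMD). PSME genes encode activators that can take the place of the cap, and PSMG genes encode chaperones that help to assemble the core. Cells raise the subunit genes together when proteasomes are inhibited, through the transcription factor NRF1 (gene NFE2L1).

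The libraries held 24222192 to 30399644 reads in genes, and all 43 members together took 0.745% to 0.883% of them. MYC went against both hairpin labels, with 459 to 518 normalized reads in libraries labelled shMYC1 and 7590 to 8100 in those labelled shMYC2, against 274 to 330 in Resistant (3425 to 3612 in MYC T58A, 413 to 436 in Parental). The hairpin comparisons are therefore given as differences between labelled libraries. The labels call the cells melanocytes. Of 9 melanocyte markers 7 are in the table, and their summed level was 13284 to 15655 in libraries labelled shMYC1, 198 to 247 in those labelled shMYC2 with DCT at 0, 3568 to 4017 in Resistant, 3586 to 3982 in MYC T58A and 6960 to 7281 in Parental. The markers did not move as 1 group. SOX10, a lineage transcription factor, averaged 11890 ± 1138 normalized reads in libraries labelled shMYC1, 19.5 ± 3.74 in those labelled shMYC2, 7.5 ± 2.52 in Resistant, 9.14 ± 1.99 in MYC T58A and 5282 ± 149 in Parental, while MITF, another, averaged 1620 ± 118, 173 ± 23, 3748 ± 233, 3592 ± 194 and 1509 ± 1.76 in the same order (SD, n = 3 each). Fibroblast markers (6 of 6 in the table) summed to 396 to 409 in libraries labelled shMYC1, 181 to 205 in those labelled shMYC2, 3769 to 3933 in Resistant, 517 to 571 in MYC T58A and 495 to 556 in Parental. They did not move as 1 group either, and LUM made up most of the sum in Resistant (3051 ± 85.1). In MYC T58A COL1A1 averaged 27.0 ± 3.77 and COL3A1 39.6 ± 7.41, against 105 ± 7.38 and 1.72 ± 0.589 in Parental (SD, n = 3 each). Epithelial markers (5 of 6) summed to 5413 to 5952 in libraries labelled shMYC1, 2913 to 3064 in those labelled shMYC2 with KRT5 at 0, 4320.1 to 4495 in Resistant, 11684 to 12939 in MYC T58A and 7921 to 8136 in Parental. Endothelial markers (2 of 3) summed to at most 25.5 in any library. The 4 immune markers are not in the table, and the part of other cell types in the results was not tested.

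Values are normalized read counts: each library's reads were divided by that library's size factor. Differences are on the log2(value + 1) scale, the first group named minus the second, and a gene was called higher or lower at a Benjamini-Hochberg adjusted p under 0.05 in limma over all 17012 tested genes. The RNA came from whole cultures, so fewer cells with a transcript and less of it per cell cannot be told apart.

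Per kilobase of exon, the members stood far apart in Parental cells. In the beta family the mean normalized reads per kilobase ran from 158 for PSMB10 to 13275 for PSMB4, with a median of 5100.2, and in the alpha family from 285 for PSMA2 to 6173 for PSMA7. Among the ATPases the median was 3023, the highest was PSMC3 at 6514, and PSMC1 had only 14.9. Several low members share exon bases with another gene in GENCODE v29. PSMA1 (35.7%), PSMA2 (52.5%), PSMA6 (63.9%), PSMB10 (45.3%) and PSMD9 (43.8%) do so on the same strand, and PSMC1 does so for 82.1% of its exon bases with a gene on the opposite strand. PSMC1 also has 13 pseudogenes there, PSMA6 has 4 and PSMA2 and PSMD10 have 3 each. Members with more reads share exon bases on the opposite strand too, among them PSMD7 (42.4%), PSMC5 (21%) and PSMD13 (15%). No label states which annotation or strand setting was used for counting, so the values of these genes are uncertain.

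In Resistant cells the 19S cap and the core were lower than in Parental by small amounts. Of the 43 members 20 fell and 4 rose, where 24.4% of all tested genes fell and 27.2% rose (24 members called, against 51.6% of all tested genes). The libraries did not overlap in 34 members, against 63.5% of all tested genes. The cap had 11 of 20 members lower and 3 higher, with a median log2 difference of -0.18, and the core had 6 of 15 lower and none higher, with a median of -0.10. The median over all tested genes was 0.01. The count of lower members was 16 to 18 with any 1 of these 6 libraries left out, 18 under total-count scaling, 25 with edgeR and 26 when only these 6 libraries were fitted, with 4 higher in each.

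The ATPases showed the lowest family median (-0.37). PSMC4 had 6562, 5828 and 6221 normalized reads in Resistant, against 8726, 8348 and 8469 in Parental. All 3 Resistant libraries lay below all Parental ones, and PSMC4 was 1.37-fold lower (log2 difference -0.46 with an SE of 0.048 and adjusted p = 2.82e-07). PSMC2 (-0.39), PSMC3 (-0.36) and PSMC5 (-0.29) also fell, while PSMC1, with few reads, differed by -0.49 and did not pass the test (adjusted p = 0.0502). That difference was called without Resistant library 1 (-0.75, adjusted p = 0.00182) and with edgeR (0.0368). The exception was PSMC6, with 2991, 2815 and 2660.1 normalized reads in Resistant, against 2152, 2290.1 and 2199 in Parental. It was 1.27-fold higher (log2 difference 0.35 with an SE of 0.069 and adjusted p = 3.72e-04), and the 50 tested genes nearest to it in the gene order of chromosome 14 (its neighbours) had a median difference of 0.55, above its own.

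Of the non-ATPase family 7 of 14 fell and 2 rose. PSMD11, a scaffold subunit of the cap, had 9338, 8348 and 8949.9 normalized reads in Resistant, against 11654, 11555 and 12234 in Parental, without overlap. It was 1.33-fold lower (log2 difference -0.41 with an SE of 0.048 and adjusted p = 9.07e-07). PSMD3 (-0.26) and PSMD13 (-0.24), structural subunits of the cap, fell as well. The members that rose, PSMD10 and PSMD5, are chaperones that help to assemble the cap and are absent from the finished particle. PSMD10, also known as gankyrin, had 1826, 1903 and 1906 normalized reads in Resistant, against 1416, 1474 and 1514 in Parental, and was 1.28-fold higher (log2 difference 0.36 with an SE of 0.067 and adjusted p = 2.11e-04), where its neighbours on the X chromosome had a median of 0.30. PSMD5 was 1.13-fold higher. PSMD9, the other chaperone of this kind, differed by -0.19 and was not called (adjusted p = 0.0503, and 0.0314 with edgeR). Without these 3 chaperones, 7 of 11 PSMD genes were called lower and none higher.

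The largest fall of any member in Resistant was that of PSMA7, an alpha ring subunit. It had 5047, 5405 and 5862 normalized reads in Resistant, against 9804, 9521 and 9714 in Parental, and was 1.78-fold lower (log2 difference -0.83 with an SE of 0.081 and adjusted p = 2.48e-07). PSMA7 lies on chromosome 20, where its 50 nearest tested genes had a median of -0.39, so that -0.44 of its difference went beyond them. Of the other alpha genes only PSMA2 was called (-0.29), a call lost without Parental library 2 or 3 or Resistant library 2 or 3 (adjusted p = 0.0663 to 0.122). In the beta family PSMB2 (-0.25), PSMB3 (-0.19), PSMB6 (-0.30) and PSMB7 (-0.22) fell. PSMB3 lost its call when any of the 6 libraries was left out (adjusted p = 0.063 to 0.0873), as did PSMD6 of the cap (-0.13) without any but Resistant library 2 (0.0555 to 0.149).

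Activators and assembly factors did not move as a group in Resistant. PSME2, a subunit of the interferon-inducible 11S activator, had 2257, 2274 and 2353 normalized reads in Resistant, against 1882, 1836 and 1938 in Parental, and was 1.22-fold higher (log2 difference 0.28 with an SE of 0.056 and adjusted p = 3.69e-04). Its partner PSME1 differed by 0.10 (adjusted p = 0.265). PSME3, which forms the nuclear activator, fell by 0.29 on the log2 scale and PSME4, the activator PA200, fell by 0.27, where the neighbours of PSME4 on chromosome 2 had a median of -0.33. Of the PSMG genes PSMG3 alone was called (-0.28).

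Among 13 associated subunits and assembly factors 7 fell and 4 rose in Resistant. Over all tested genes 24.4% fell and 27.2% rose, shares that apply to each list of this paragraph. ADRM1, a ubiquitin receptor of the cap, had 3829, 3546 and 4120.4 normalized reads in Resistant, against 7479.9, 7511 and 7612 in Parental, and was 1.97-fold lower (log2 difference -0.98 with an SE of 0.064 and adjusted p = 5.77e-10). Like PSMA7 it lies on chromosome 20 (median of its neighbours -0.41), as do the proteasome inhibitor PSMF1 (-0.60, neighbours -0.40) and NSFL1C, a cofactor of the unfolding ATPase VCP (-0.77, neighbours -0.40). UCHL5, a deubiquitinase of the cap, was 1.51-fold higher. POMP, which helps to close the core, was 1.23-fold lower. Of 9 regulators of proteasome genes 2 rose and 2 fell, with NFE2L1 1.27-fold higher. Of 12 shuttles and segregase genes 7 fell and 1 rose. VCP itself is counted among the regulators and not in this list, and the lists of regulators and of shuttles share a gene. Of 6 ubiquitin and activating enzyme genes only UBA1 was called, and it fell (-0.12).

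**Figure D1:**
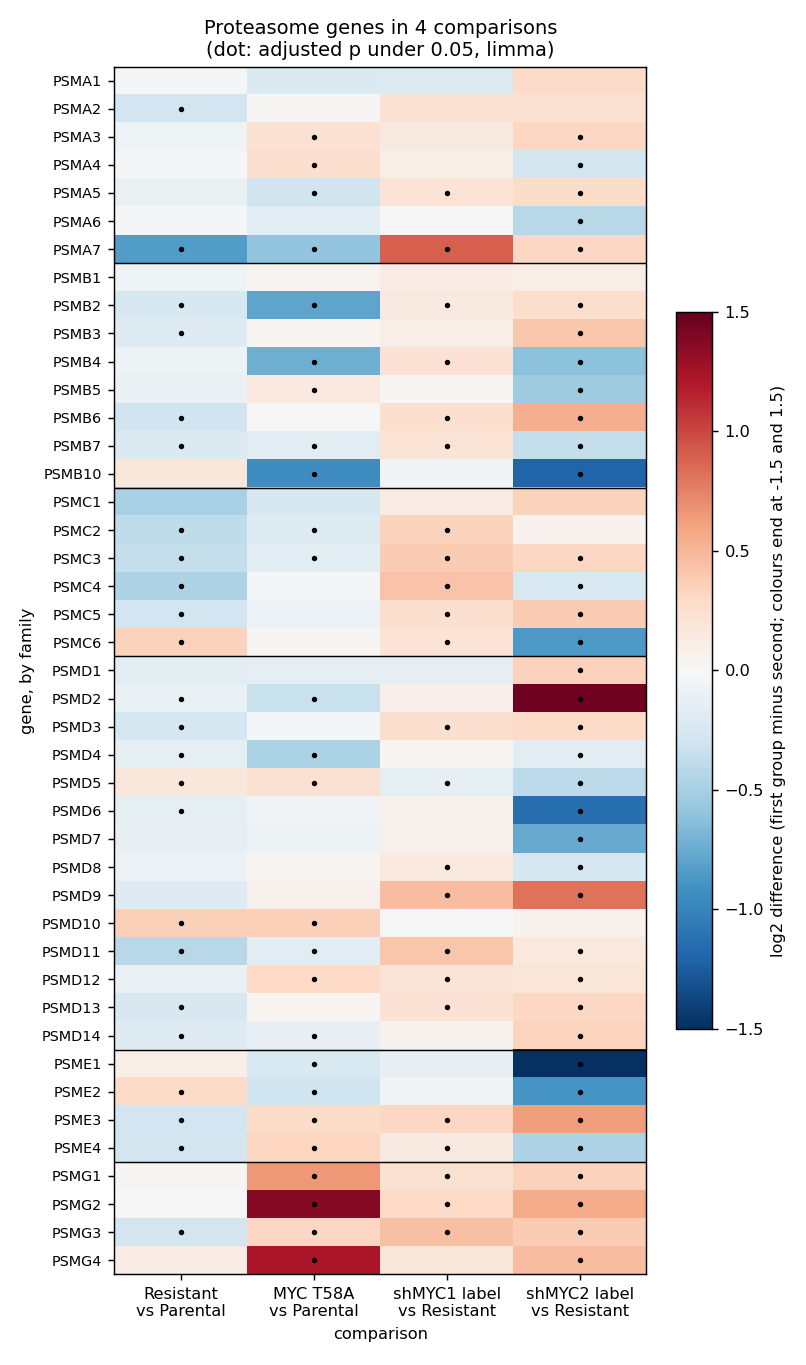
Log2 difference of each of the 43 members (rows, by family) in each of the 4 comparisons (columns), the first group named minus the second; a dot marks an adjusted p under 0.05 in limma. PSMA7 is the darkest blue cell in Resistant against Parental (-0.83), and the 4 PSMG genes are all red in MYC T58A against Parental (0.31 to 1.36).

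The ATPase genes PSMC2, PSMC3 and PSMC5 fell together in Resistant, and each holds a CCAAT box in the 250 bases before its RefSeq start, the motif bound by the factor NF-Y. Their stretches are shown 5′ to 3′ on the gene's strand (GRCh38.p14, RefSeq), with CCAAT or its reverse complement in capitals.
PSMC2 (chr7:103347393-103347642, plus strand): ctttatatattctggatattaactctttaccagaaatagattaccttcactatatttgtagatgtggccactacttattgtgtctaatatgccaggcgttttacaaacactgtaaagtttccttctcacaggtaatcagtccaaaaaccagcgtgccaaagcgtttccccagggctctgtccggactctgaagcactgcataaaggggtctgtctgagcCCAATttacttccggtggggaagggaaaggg
PSMC3 (chr11:47426440-47426689, minus strand): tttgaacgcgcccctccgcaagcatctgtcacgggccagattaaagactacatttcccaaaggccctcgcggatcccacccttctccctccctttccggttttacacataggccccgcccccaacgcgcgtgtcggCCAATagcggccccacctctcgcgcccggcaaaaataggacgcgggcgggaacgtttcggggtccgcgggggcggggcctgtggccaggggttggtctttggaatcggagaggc
PSMC5 (chr17:63827181-63827430, plus strand): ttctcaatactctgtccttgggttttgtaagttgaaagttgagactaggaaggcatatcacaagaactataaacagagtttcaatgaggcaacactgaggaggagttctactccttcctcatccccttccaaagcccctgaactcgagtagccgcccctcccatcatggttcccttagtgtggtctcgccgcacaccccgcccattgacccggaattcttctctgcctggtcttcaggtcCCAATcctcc
Of 37 members with a RefSeq promoter 16 (43.2%) held CCAAT on either strand in these 250 bases, against 33% of 27305 genes, counting the first listed start of each gene. PSMC6, which rose, and PSMC4, which had the largest called fall among the ATPases, are not among these 16. Members without a RefSeq promoter could not be among them. The 16 do hold PSMD10, which had the largest called rise of any member in Resistant (0.36). They also hold PSMA3, PSMA5, PSMB5, PSMD7, PSMD8 and PSMG1, which were not called there. The rest of the 16 were called lower in Resistant. A link between the motif and the falls was not tested. The CCAAT stretches are matches of letters, not sites.

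In MYC T58A cells all 4 assembly chaperone genes of the core rose over Parental, while the members split, with 12 higher and 14 lower. Over all tested genes 30.1% were higher and 33.7% lower, shares near those of the members as a whole (26 members called, against 63.8% of all tested genes). The libraries did not overlap in 30 members, against 72.7% of all tested genes. The median was 0.94 over the 4 PSMG genes, -0.15 over the core and -0.06 over the cap, and -0.02 over all tested genes. The core median was 0.03 without MYC T58A library 2, so its sign rests on that library, and 0.01 without the 4 core genes that share exon bases with another gene.

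PSMG2, which pairs with PSMG1 to build the alpha ring, had 2424, 2441 and 2473 normalized reads in MYC T58A, against 921, 978 and 951 in Parental. It was 2.58-fold higher (log2 difference 1.36 with an SE of 0.075 and adjusted p = 3.38e-11), and its neighbours on chromosome 18 had a median of 0.78. PSMG1 itself had 3068, 2844 and 2841 normalized reads in MYC T58A, against 1844, 1825 and 1903 in Parental. The groups did not overlap for either gene. PSMG1 was 1.57-fold higher (log2 difference 0.65 with an SE of 0.054 and adjusted p = 8.69e-09), while its neighbours on chromosome 21 had a median of -0.21. PSMG4, which pairs with PSMG3, had 563, 520.4 and 692 normalized reads in MYC T58A, against 273, 253 and 229.6 in Parental, and was 2.35-fold higher (log2 difference 1.22 with an SE of 0.12 and adjusted p = 5.48e-08, neighbours 0.21). PSMG3 was 1.24-fold higher (0.31, neighbours 0.19). With the median of the neighbours taken off, the 4 genes stood 0.12 to 1.01 higher.

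**Figure D2:**
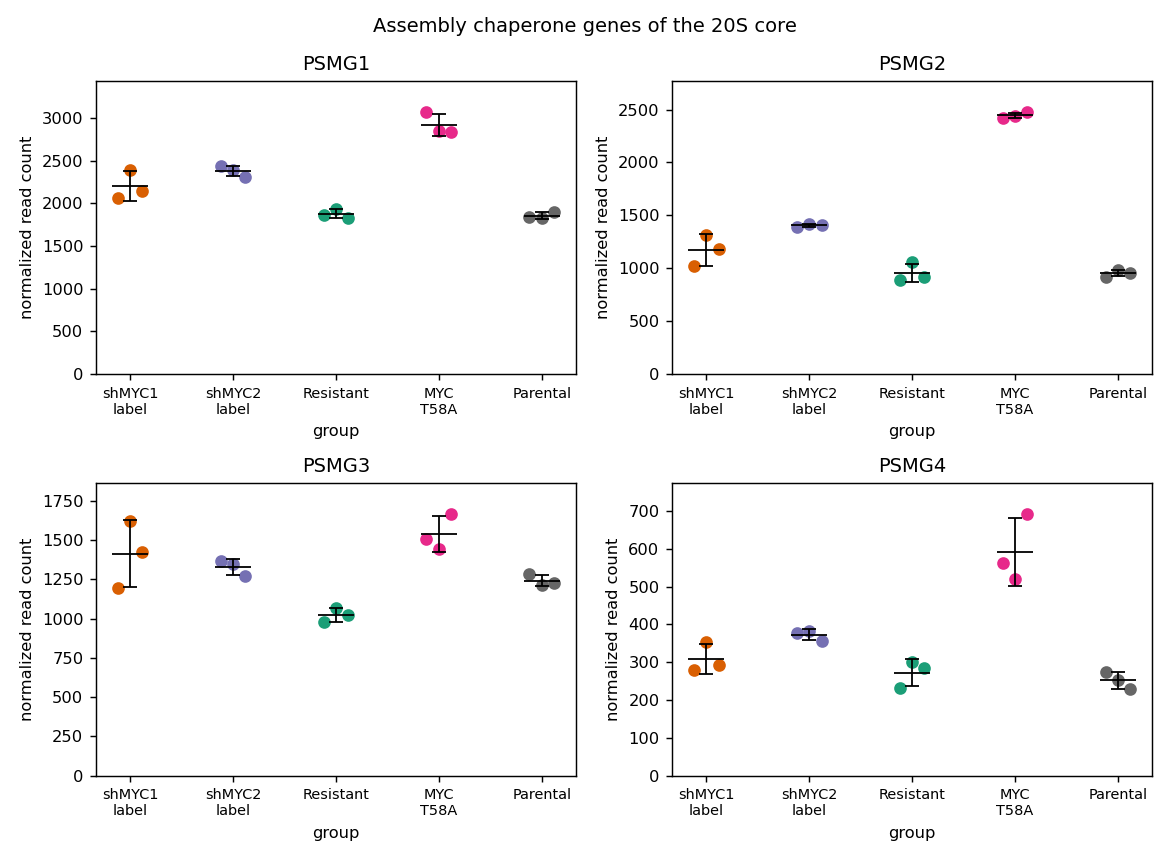
Normalized read counts of PSMG1, PSMG2, PSMG3 and PSMG4 in each library (points) by group, with the mean (bar) and SD of 3 libraries (whiskers). PSMG2 stands at 2424 to 2473 in MYC T58A, above all other libraries, whose highest is 1413.

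PSMG1 and PSMG2 are shown as the pair that starts the alpha ring and rose in MYC T58A. The capitals mark CCAAT and the core of the antioxidant response element, TGACNNNGC, a sequence type through which NRF1 acts. The same 250 bases before the first listed RefSeq start are given.
PSMG1 (chr21:39183452-39183701, minus strand): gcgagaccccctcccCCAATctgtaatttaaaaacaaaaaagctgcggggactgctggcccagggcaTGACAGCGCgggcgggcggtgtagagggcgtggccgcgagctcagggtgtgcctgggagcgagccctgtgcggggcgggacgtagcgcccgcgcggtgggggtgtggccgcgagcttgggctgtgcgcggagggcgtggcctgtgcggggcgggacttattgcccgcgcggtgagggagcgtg
PSMG2 (chr18:12658488-12658737, plus strand): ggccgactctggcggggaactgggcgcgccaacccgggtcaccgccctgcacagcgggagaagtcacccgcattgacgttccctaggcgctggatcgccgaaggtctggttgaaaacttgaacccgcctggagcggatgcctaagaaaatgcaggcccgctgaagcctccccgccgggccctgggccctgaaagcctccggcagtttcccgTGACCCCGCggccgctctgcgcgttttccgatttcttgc
TGACNNNGC was found on either strand in 10 of 37 members (27%) and in 11% of 27305 genes. Of these 10, PSME4, PSMD5, PSMD12, PSMG1 and PSMG2 were called higher in MYC T58A. PSME1 and PSME2 were called lower, and PSMB3, PSMD3 and PSMD9 were not called. PSMG3 and PSMG4, which also rose, are not among the 10, which can only hold members with a RefSeq promoter. A link between this motif and the rises was not tested. The E-box CACGTG, the core motif of MYC, was found in 3 of 37 members (8.11%), PSMB3, PSMD9 and PSME3, and in 6.49% of all genes, and it is not in the windows of PSMG1 and PSMG2. RefSeq lists more than 1 start for some members, PSMC5 and PSMG2 among them.

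The core genes that fell most in MYC T58A were PSMB10, PSMB2 and PSMB4. PSMB2 had 5388, 5357 and 5327 normalized reads in MYC T58A, against 9158, 9417 and 9318 in Parental. PSMB4 had 7569.9, 7399.7 and 8234 normalized reads in MYC T58A, against 12919.6, 12647 and 12824 in Parental. Both are non-catalytic subunits of the beta ring, and both were far below their Parental range. PSMB2 was 1.74-fold lower (log2 difference -0.80 with an SE of 0.038 and adjusted p = 4.71e-12) and PSMB4 1.65-fold lower (log2 difference -0.73 with an SE of 0.058 and adjusted p = 4.31e-09). Both lie on chromosome 1, as do PSMA5 (-0.30) and PSMD4 (-0.48), and all 4 members on that chromosome fell. The medians of their neighbours were -0.60, -0.60, -0.54 and -0.60 for PSMB2, PSMB4, PSMA5 and PSMD4. With these taken off, PSMB2 and PSMB4 stood at -0.19 and -0.13, and PSMA5 and PSMD4 turned to 0.24 and 0.12. The 12 core genes on other chromosomes had a median of 0.01, with 3 called higher and 3 lower. PSMA7 on chromosome 20 was one of those that fell (-0.59, neighbours -0.36).

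In the cap 6 of 20 members fell and 3 rose in MYC T58A, where 33.7% of all tested genes fell and 30.1% rose, so falls in the cap were about as frequent as over all genes. PSMD2, the large scaffold of the cap, fell by 0.33 on the log2 scale, PSMC2 by 0.19 and PSMC3 by 0.16. The chaperones PSMD10 (0.35) and PSMD5 (0.23) rose here too, as did PSMD12 (0.29). The comparison shares its Parental libraries with that of Resistant. Of the activators PSME3 (0.27) and PSME4 (0.33) rose and PSME1 (-0.23) and PSME2 (-0.30) fell.

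Partner genes in MYC T58A were called in both directions. Of the 13 associated subunits and assembly factors 4 rose and 6 fell. Over all tested genes 30.1% rose and 33.7% fell, shares that apply to each list of this paragraph. USP14, a deubiquitinase that binds the cap, had 9318, 9579.9 and 8776 normalized reads in MYC T58A, against 4322, 4515 and 4449 in Parental, and was 2.08-fold higher (log2 difference 1.06 with an SE of 0.044 and adjusted p = 8.04e-13). It lies on chromosome 18 like PSMG2 (neighbours 0.54), and so does TXNL1, a redox partner of the cap (0.56, neighbours 0.44). POMP, which acts after the PSMG chaperones, fell by 0.28. Of 9 regulators 5 fell and 2 rose, with NFE2L1 at -0.39 and NGLY1, the deglycosylase that activates its product, at 0.62. Of 12 shuttles and segregase genes 6 fell and 2 rose. Of 6 ubiquitin and activating enzyme genes 1 rose, UBA6, an activating enzyme of ubiquitin (0.23), and 1 fell.

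In the libraries labelled shMYC1 22 members were higher than in Resistant and 1 was lower, where 27% of all tested genes were higher and 30.1% lower (23 members called, against 57.1% of all tested genes). The libraries did not overlap in 21 members, against 60.1% of all tested genes. The cap had 11 of 20 members higher and 1 lower, with a median of 0.17. The core had 6 of 15 higher and none lower, with a median of 0.14, and the median over all tested genes was -0.03. The count of higher members was 15 under quantile normalization or total-count scaling, 16 when only the 6 libraries were fitted and 26 with edgeR. Under quantile normalization and total-count scaling the core median was 0.07 in both, and that over all tested genes 0.02 and -0.10. The core genes PSMA5, PSMB2 and PSMB7 lost their call under both. PSMB4 lost its call under quantile normalization, where PSMA2 gained one, and PSMB6 under total-count scaling. These libraries are set against the Resistant ones, which were the low group of the comparison with Parental, so the 2 sets of differences share those 3 libraries.

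The 3 libraries labelled shMYC1 were unlike each other in the core. Library 2 had the highest value of its group in 14 of 15 core genes and in 11 of 20 cap genes. Its median excess over the mean of libraries 1 and 3 was 0.24 on the log2 scale in the core and 0.04 in the cap. Over all tested genes with a known exon length, split into 4 classes of nearly equal size, the same excess was 0.11 in the shortest class and -0.08 in the longest, and the median exon length is 1439 bases for core genes and 2173 for cap genes. The part of transcript length in the result was not tested. Without library 2 the core median was 0.04 and the cap median 0.15, and 22 members were higher and 4 lower (PSMA1, PSMD5, PSME1 and PSME2). Without library 1, 29 were higher and 1 was lower.

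PSMA7 had 9334, 11721 and 9467 normalized reads in the libraries labelled shMYC1, against 5047, 5405 and 5862 in Resistant. It was 1.87-fold higher (log2 difference 0.90 with an SE of 0.081 and adjusted p = 7.92e-08), and its neighbours on chromosome 20 had a median of 0.46. ADRM1 (0.95, neighbours 0.46), NSFL1C (0.88, neighbours 0.44) and PSMF1 (0.62, neighbours 0.44) on the same chromosome were also higher. PSMD9 had 437, 400.5 and 415 normalized reads in the libraries labelled shMYC1, against 302, 331 and 279 in Resistant, and was 1.37-fold higher (log2 difference 0.46 with an SE of 0.08 and adjusted p = 8.41e-05). PSMG3 had 1194, 1619.5 and 1423 normalized reads in the libraries labelled shMYC1, against 981, 1066 and 1023 in Resistant, and was 1.38-fold higher (log2 difference 0.45 with an SE of 0.083 and adjusted p = 1.48e-04). All 3 genes stood above the whole Resistant range in every library.

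Of the 6 ATPases 5 were higher in the libraries labelled shMYC1, the highest share among the families. PSMC4 had 8055, 8887 and 8162 normalized reads in the libraries labelled shMYC1, against 6562, 5828 and 6221 in Resistant, and was 1.35-fold higher (log2 difference 0.43 with an SE of 0.048 and adjusted p = 4.64e-07). PSMC3 (0.38), PSMC2 (0.35) and PSMC5 (0.24) followed. PSMC6 (0.20) lost its call without library 2 labelled shMYC1 (adjusted p = 0.0943) or Resistant library 3 (0.0877), and under quantile normalization (0.0593) or total-count scaling (0.108). The single lower member was PSMD5, with 2267, 2353 and 2348 normalized reads in the libraries labelled shMYC1, against 2632, 2649 and 2423 in Resistant (log2 difference -0.14 with an SE of 0.047 and adjusted p = 0.0148). Its call was lost without Resistant library 1 (adjusted p = 0.0564) or 2 (0.0665). PSMD11 was 1.33-fold higher (0.41) and PSMD3 1.18-fold higher (0.24).

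Of the remaining members, the activator genes PSME3 (0.31) and PSME4 (0.13) were higher in the libraries labelled shMYC1. The call of PSME4 was lost without Resistant library 1 or 3 or library 3 labelled shMYC1 (adjusted p = 0.0995, 0.101 and 0.183). PSMG1 (0.22), PSMG2 (0.29) and PSMG3 were higher, and PSMG4 differed by 0.18 (adjusted p = 0.213). Of the 13 associated subunits and assembly factors 7 were higher and 4 lower, and of 9 regulators 2 were higher and 2 lower, with NFE2L1 at -0.39. Of 12 shuttles and segregase genes 4 were higher and 1 was lower, and of 6 ubiquitin and activating enzyme genes 3 were higher. Beside these lists, 27% of all tested genes were higher and 30.1% lower.

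The libraries labelled shMYC2 differed from Resistant in most genes, members or not. Of the 43 members 21 were higher and 16 lower, where 36.2% of all tested genes were higher and 43% lower (37 members called, against 79.2% of all tested genes). The libraries did not overlap in 39 members, against 81.3% of all tested genes, so the members were called about as often as all genes. The core had 6 higher and 6 lower of 15 (median 0.23) and the cap 10 higher and 7 lower of 20 (median 0.17), with a median of -0.08 over all tested genes. The overall level depends on the scaling: the median of all tested genes was 0.15 under quantile normalization and -0.22 under total-count scaling, and 19 and 17 members were then higher, with 15 and 16 lower. The core median was then 0.12 and 0.09 and that of the cap 0.02 under both. These libraries also stood apart in melanocyte, fibroblast and epithelial markers (values above), whose part in the result was not tested.

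PSMD2 had 31875, 32390.2 and 31998 normalized reads in the libraries labelled shMYC2, against 11453, 11385 and 12072 in Resistant. It was 2.76-fold higher (log2 difference 1.46 with an SE of 0.037 and adjusted p = 1.03e-16), and its neighbours on chromosome 3 had a median of 0.82. PSMD6, another cap subunit on chromosome 3, went the other way, with 2321, 2357 and 2309 normalized reads in the libraries labelled shMYC2, against 5157, 5216 and 4892 in Resistant. It was 2.18-fold lower (log2 difference -1.13 with an SE of 0.051 and adjusted p = 4.51e-13), while its neighbours had a median of -0.02. PSMD9 had 510.3, 569 and 528 normalized reads in the libraries labelled shMYC2, against 302, 331 and 279 in Resistant, and was 1.76-fold higher (log2 difference 0.82 with an SE of 0.08 and adjusted p = 2.76e-08). PSMD7 (-0.76), which pairs with the deubiquitinase PSMD14, and the ATPase PSMC6 (-0.86, neighbours -0.67) also fell.

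PSME3 had 13600, 13712 and 13961 normalized reads in the libraries labelled shMYC2, against 9062, 8886 and 8756 in Resistant, and was 1.55-fold higher (log2 difference 0.63 with an SE of 0.037 and adjusted p = 2.21e-11). PSME4 was 1.38-fold lower (-0.47). All 4 PSMG genes were higher, by 0.34 to 0.56, where the median over their neighbours was 0.30. With the neighbours' median taken off, the median of the 4 genes was 0.16, and PSMG1 lay below its neighbours (-0.11). The rise of PSMA7 (0.31) was no longer called under quantile normalization (adjusted p = 0.139) and total-count scaling (0.101). PSMD11 (0.15) had its difference removed by both (-0.0033 and 0.0047) and lost its call without Resistant library 2 (adjusted p = 0.0606). Of the 13 associated subunits and assembly factors 7 were higher, with PSMF1 at 1.07, and 6 lower, with UCHL5 at -1.22. Of 9 regulators 2 were higher and 3 lower, of 12 shuttles and segregase genes 3 and 5, and of 6 ubiquitin and activating enzyme genes 2 and 2. Beside these lists, 36.2% of all tested genes were higher and 43% lower.

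**Figure D3:**
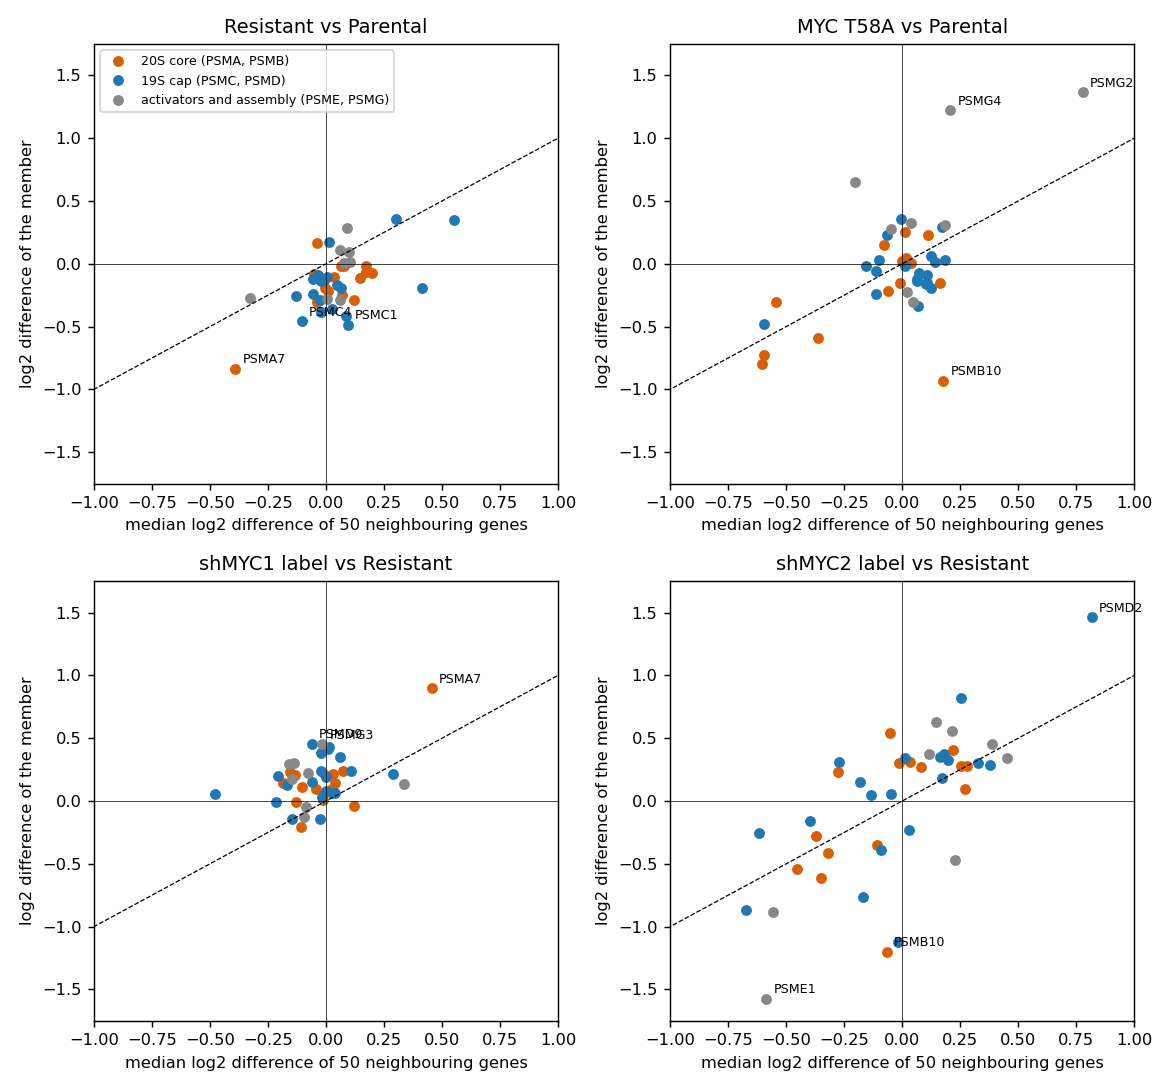
Log2 difference of each member (vertical axis) against the median log2 difference of the 50 tested genes nearest to it in the gene order (horizontal axis), 1 panel per comparison, with colours for core, cap and other members; the dashed line marks equality. PSMA7 lies below the line in Resistant (-0.83 against -0.39), and PSMD2 lies furthest right in the libraries labelled shMYC2 (1.46 against 0.82).

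Across the 43 members, the differences followed those of the neighbouring genes with Pearson's r of 0.57 in Resistant, 0.59 in MYC T58A, 0.40 in the libraries labelled shMYC1 and 0.70 in those labelled shMYC2. Over all tested genes with a known place r was 0.22, 0.19, 0.19 and 0.26 in the same order. Genes are not independent replicates, members on 1 chromosome share neighbours, and all points of a comparison share its libraries. With the neighbours' median taken off, the core median became -0.23 in Resistant. There 37 of 43 members lay below their neighbours, against 7133 of all 14246 tested genes with such neighbours. The members below were 23 in MYC T58A, 6 under the shMYC1 label and 17 under the shMYC2 label. Over all 14246 genes the counts were 7138, 7107 and 7123 in the same order. In MYC T58A the core median became -0.03 and the cap median -0.13. Core and cap stood at 0.16 and 0.21 for the shMYC1 label and at 0.02 and 0.16 for the shMYC2 label.

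The 3 constitutive catalytic subunits did not keep the same order of change. PSMB5, which carries the chymotrypsin-like activity, had 2812, 3494 and 3185 normalized reads in libraries labelled shMYC1, 2137, 2172 and 2147 in those labelled shMYC2, 3186, 3034 and 3159 in Resistant, 3668, 3657 and 3854 in MYC T58A and 3295, 3336 and 3447 in Parental. It was lowest in the libraries labelled shMYC2, 1.45-fold lower than in Resistant (log2 difference -0.54 with an SE of 0.059 and adjusted p = 1.37e-07), where its neighbours on chromosome 14 had a median of -0.45. Its rise in MYC T58A (0.15, adjusted p = 0.0349) was no longer called when any library but Parental library 3 was left out (adjusted p = 0.0501 to 0.115) and under quantile normalization (0.122).

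PSMB6, the caspase-like subunit, had 3184, 4128 and 3339 normalized reads in libraries labelled shMYC1, 4438, 4395 and 4277 in those labelled shMYC2, 2973, 2929 and 3083 in Resistant, 3741, 3542 and 3839 in MYC T58A and 3714, 3602 and 3753 in Parental. It was highest in the libraries labelled shMYC2, 1.46-fold higher than in Resistant (log2 difference 0.54 with an SE of 0.069 and adjusted p = 9.38e-07, neighbours -0.05), and 1.23-fold lower in Resistant than in Parental (log2 difference -0.30 with an SE of 0.069 and adjusted p = 0.00135). Its rise in the libraries labelled shMYC1 (0.24) lost its call under total-count scaling (adjusted p = 0.0601). PSMB7, the trypsin-like subunit, had 8596, 9809.9 and 8386 normalized reads in libraries labelled shMYC1, 5944, 6255 and 5889 in those labelled shMYC2, 7969, 7239 and 7908 in Resistant, 8136, 7527 and 8502 in MYC T58A and 8902, 8927 and 9038 in Parental. It was lower in Resistant than in Parental (log2 difference -0.22 with an SE of 0.059 and adjusted p = 0.00469) and lower in the libraries labelled shMYC2 than in Resistant (log2 difference -0.35 with an SE of 0.059 and adjusted p = 2.63e-05). The difference of PSMB7 between MYC T58A and Parental (-0.15, adjusted p = 0.0295) lost its call when any library but MYC T58A library 3 was left out (adjusted p = 0.0516 to 0.159) and under both other scalings (0.1 and 0.106).

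PSMB10 is the inducible subunit that replaces PSMB7 in immunoproteasomes. It had 216, 221 and 195 normalized reads in libraries labelled shMYC1, 100.1, 91.8 and 89 in those labelled shMYC2, 215, 213 and 221 in Resistant, 105, 92.4 and 105 in MYC T58A and 195, 193 and 191 in Parental. The libraries of MYC T58A and of the shMYC2 label lay far below the other 9. PSMB10 was 1.91-fold lower in MYC T58A than in Parental (log2 difference -0.93 with an SE of 0.093 and adjusted p = 9.15e-08) and 2.31-fold lower in the libraries labelled shMYC2 than in Resistant (log2 difference -1.20 with an SE of 0.093 and adjusted p = 1.04e-09). Neighbours on chromosome 16 had medians of 0.18 and -0.07, so the falls went beyond theirs. In Resistant it differed from Parental by 0.16 without a call (adjusted p = 0.151).

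PSME1 and PSME2 form the 11S activator that interferon gamma induces. PSME1 had 1899.7, 2489 and 2017 normalized reads in libraries labelled shMYC1, 786, 757 and 782 in those labelled shMYC2, 2349, 2304 and 2282 in Resistant, 1840.4, 1855 and 1846 in MYC T58A and 2085, 2167 and 2233 in Parental. In the libraries labelled shMYC2 it was 2.98-fold lower than in Resistant (log2 difference -1.58 with an SE of 0.07 and adjusted p = 3.56e-13), the largest fall among the 43 members in any of the 4 comparisons, with neighbours on chromosome 14 at -0.59. PSME2 had 2120.4, 2469.9 and 2101 normalized reads in libraries labelled shMYC1, 1248, 1236 and 1246 in those labelled shMYC2, 2257, 2274 and 2353 in Resistant, 1506, 1479 and 1597 in MYC T58A and 1882, 1836 and 1938 in Parental. It was 1.85-fold lower in the libraries labelled shMYC2 than in Resistant (log2 difference -0.88 with an SE of 0.056 and adjusted p = 6.36e-11, neighbours -0.56), and neither activator gene was called in those labelled shMYC1. Without library 2 labelled shMYC1 both were called lower there (PSME1 -0.24, adjusted p = 1.81e-04, and PSME2 -0.12, adjusted p = 0.0309).

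The list of interferon-inducible antigen processing genes, which holds PSMB8 and PSMB9, had 8 of 11 genes higher and 2 lower in Resistant than in Parental (27.2% and 24.4% of all tested genes). In MYC T58A 3 were higher and 7 lower than in Parental (30.1% and 33.7% of all tested genes). Against Resistant, 1 was higher and 9 were lower in the libraries labelled shMYC1 (27% and 30.1% of all tested genes), and 3 were higher and 8 lower in those labelled shMYC2 (36.2% and 43%). PSMB8 had 1055 ± 59.2 normalized reads in libraries labelled shMYC1, 309.8 ± 11.9 in those labelled shMYC2, 1607 ± 58.1 in Resistant, 736 ± 27.6 in MYC T58A and 960.3 ± 18 in Parental (SD, n = 3 each). PSMB9 had 402 ± 28.2, 44 ± 6.05, 536 ± 58.3, 186 ± 9.28 and 327 ± 3.85 in the same order (SD, n = 3 each). Both were higher in Resistant than in Parental (0.74 and 0.71), where PSMB10 was not called.

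**Figure D4:**
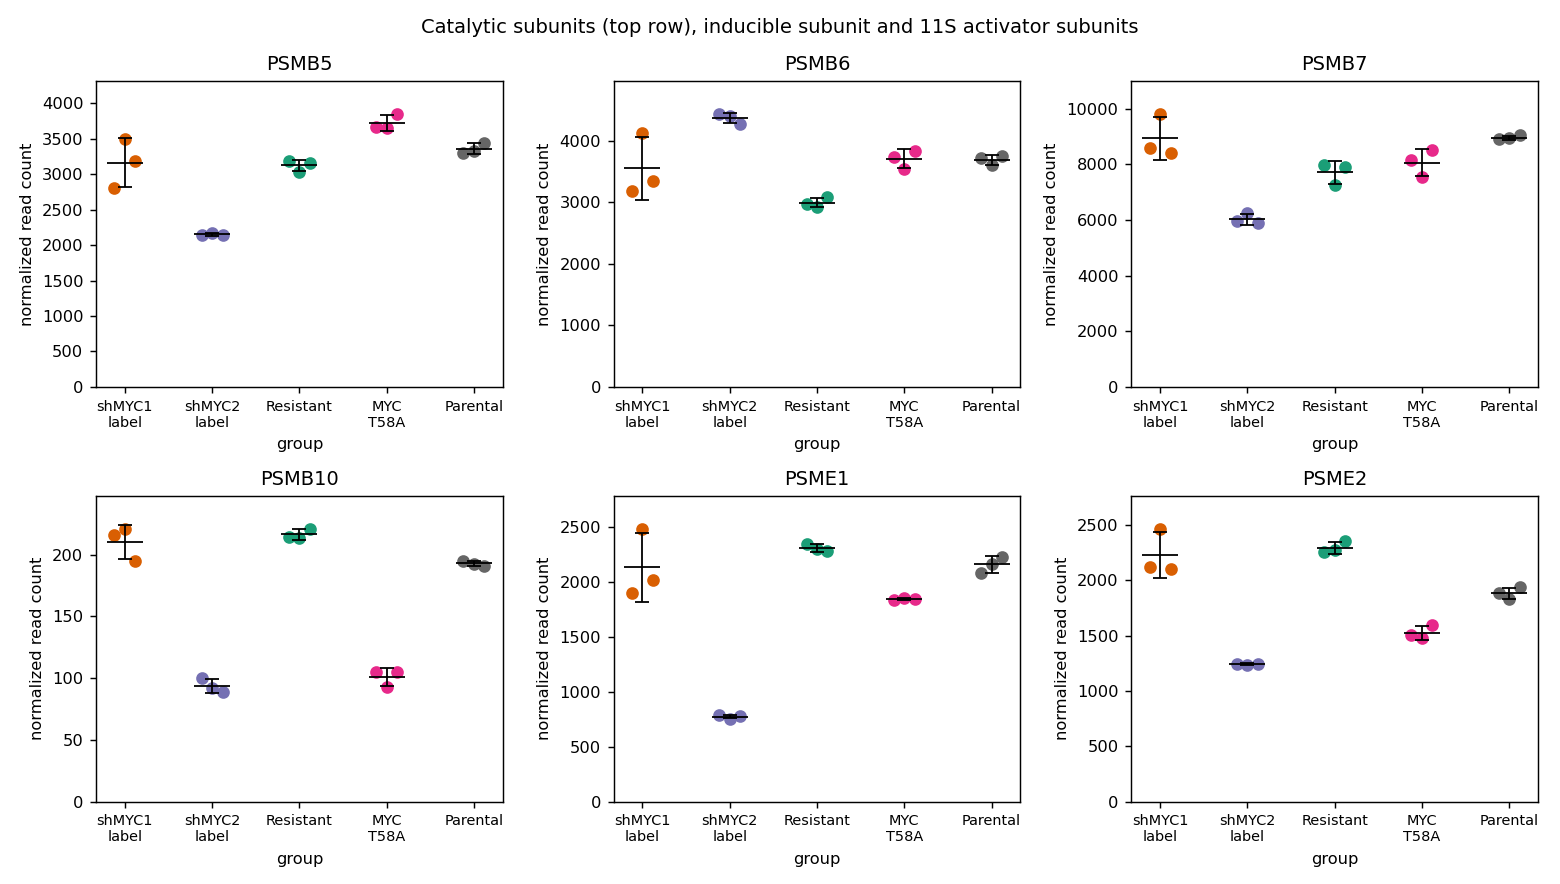
Normalized read counts of PSMB5, PSMB6, PSMB7, PSMB10, PSME1 and PSME2 in each library (points) by group, with the mean (bar) and SD of 3 libraries (whiskers). PSMB10 stands at 89 to 105.2 in MYC T58A and the libraries labelled shMYC2, and at 191 to 221 in the other 9 libraries.

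Ubiquitin chains are handled on the cap by PSMD14 and PSMD4, among others. PSMD14, the deubiquitinase that frees the chain from the substrate, had 5087, 5633 and 5783 normalized reads in libraries labelled shMYC1, 6673, 6460.3 and 6789.6 in those labelled shMYC2, 5526, 5268 and 5058 in Resistant, 5706, 5521 and 5354 in MYC T58A and 5831, 6121 and 6119.8 in Parental. It was lower in Resistant than in Parental (log2 difference -0.19 with an SE of 0.051 and adjusted p = 0.00432), although its neighbours on chromosome 2 had a median of 0.41, and higher in the libraries labelled shMYC2 than in Resistant (0.33). Its difference in MYC T58A (-0.12) lost its call without Parental library 2 or 3 or MYC T58A library 2 or 3 (adjusted p = 0.0817 to 0.131). PSMD4, a ubiquitin receptor, had 6879.7, 6833 and 6816 normalized reads in libraries labelled shMYC1, 5975, 6141 and 5929 in those labelled shMYC2, 6938, 6347 and 6831 in Resistant, 5389.9, 5074 and 5460.4 in MYC T58A and 7247, 7423 and 7489.9 in Parental. It fell in MYC T58A (log2 difference -0.48 with an SE of 0.043 and adjusted p = 2.21e-08), about as far as its neighbours on chromosome 1, and its small difference in Resistant (-0.14) was not called without Resistant library 2 (adjusted p = 0.0708).

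Core and cap were also compared as sums within each library. The summed normalized reads of the 15 core genes were 79318 ± 8117 under the shMYC1 label, 67384 ± 870.2 under the shMYC2 label, 67441 ± 1034 in Resistant, 65836 ± 2461 in MYC T58A and 77615 ± 629 in Parental (SD, n = 3 each). Those of the 20 cap genes were 119754 ± 2057 under the shMYC1 label, 127776 ± 286 under the shMYC2 label, 105181 ± 2744 in Resistant, 113954 ± 1202 in MYC T58A and 121236 ± 813 in Parental (SD, n = 3 each). Core and cap were both lower in Resistant than in Parental, without overlap between libraries, and their ratio stayed at 0.641 ± 0.00929 in Resistant, against 0.640 ± 0.000953 in Parental (SD, n = 3 each). In MYC T58A the ratio was 0.578 ± 0.0246, below all Parental libraries, and in the libraries labelled shMYC2 it was 0.527 ± 0.00576, below all Resistant ones (SD, n = 3 each). The libraries labelled shMYC1 had ratios of 0.625, 0.729 and 0.632, of which library 2 lay above all Resistant libraries and library 1 below them.

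Single abundant genes differed by much in these sums. In the libraries labelled shMYC2 the core sum was about that of Resistant (67384 and 67441), and the cap sum was higher (127776 against 105181). PSMD2 alone made up most of that cap difference, with 32088 ± 269 normalized reads, against 11637 ± 378 in Resistant (SD, n = 3 each). The lower ratio there thus rests largely on 1 gene. In the core, PSMB4 had 7901 ± 105 in the libraries labelled shMYC2, against 12109 ± 361 in Resistant (SD, n = 3 each). In MYC T58A, PSMB2 and PSMB4 of chromosome 1 were the core genes with the largest fall after PSMB10. By median over members under the shMYC2 label, the core stood at 0.23 and the cap at 0.17, or at 0.02 and 0.16 with the neighbours' median taken off, and the PSMB genes alone at -0.13. The ratios are a description and were not tested.

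**Figure D5:**
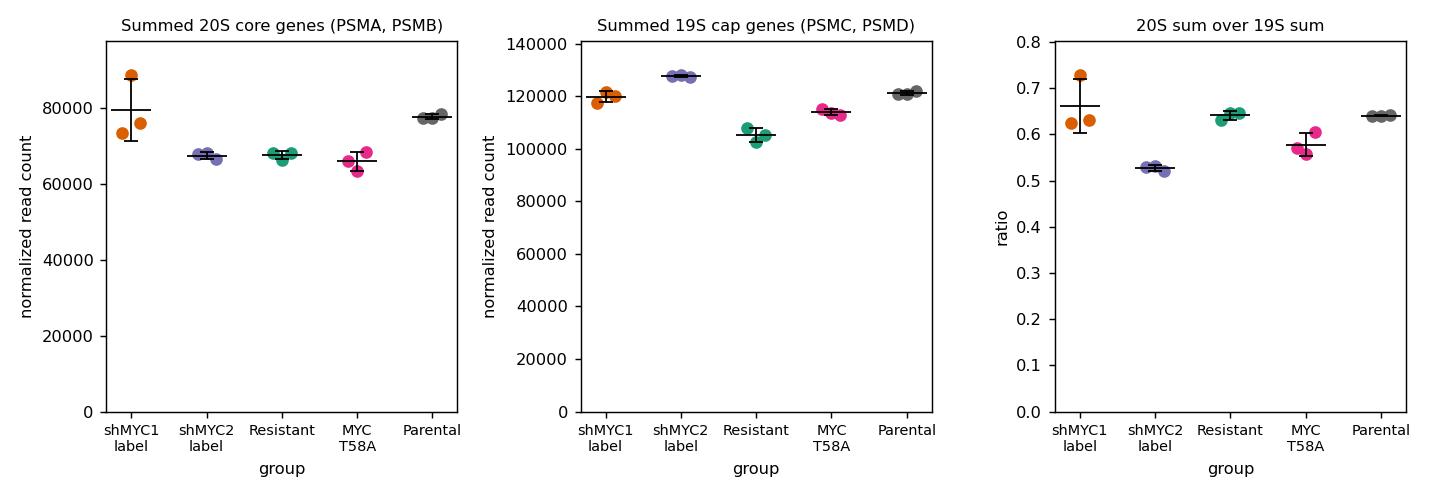
Summed normalized read counts of the 15 core genes (left) and the 20 cap genes (middle) and their ratio (right) in each library (points) by group, with the mean (bar) and SD of 3 libraries (whiskers). The ratio is lowest in the libraries labelled shMYC2 (0.521 to 0.531), and library 2 labelled shMYC1 stands alone at 0.729.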

How the data were processed

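RNA from 15 cultures of A375 cells was sequenced as stranded mRNA libraries, per the labels' protocols. Trim Galore, cutadapt, STAR, HTSeq and DESeq2 are named in the submitters' processing notes, without versions or roles; no label names the genome build or the counting annotation. The deposited table holds a signal value per gene and library which, from the values, is a whole read count divided by the authors' size factor (100% of values whole within 0.01 reads, steps of 0.881 to 1.077), and lists only genes with at least 10 reads in their highest library. Column names give the group but not the replicate number, so libraries are numbered in column order. Every gene name comes from the table.

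Differences were tested with limma 3.58.1 (trend, robust) on log2(value + 1) in R 4.3.3, over the 17012 of 18322 genes that reached 10 in 3 or more libraries, with 5 group means fitted to all 15 libraries and p-values adjusted by Benjamini-Hochberg. The step was tested on simulated data first. Alternatives were pseudocounts of 0.1 and 10, no filter and a minimum of 50, quantile normalization, total-count scaling, limma without robust, edgeR 4.0.16 and DESeq2 1.42.0 on the recovered reads, only the 6 libraries of a comparison, each library left out, and the neighbours' median taken off. Gene order, exon lengths and overlaps came from GENCODE v29, which placed 81.69% of the genes and all 43 members. The 50 neighbours are the 25 nearest tested genes with a known place on each side. Near a chromosome end the window was shifted inward so that it still held 50 neighbours. Promoter sequences came from RefSeq.

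The members and gene lists were chosen with earlier results of these data known. Values in every library are given for the 3 called members with the largest rise and the 3 with the largest fall in each comparison, the catalytic and inducible core subunits, PSMD14, PSMD4, PSME1 and PSME2. Other members and the partner genes singled out were chosen after their values were seen. SEM1, ECPAS and UFD1 of the partner lists are under older symbols in the table. A gene of the partner lists is not reported here. MLANA, TYR and the marker genes not in the table are not analysed here.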

Additional observations from a re-analysis of the deposited data

How the results depend on the processing

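No paired analysis was possible because the table's columns carry no replicate number. The fits were compared over 172 differences of members (43 in each of the 4 comparisons). A called difference was kept if it stayed called in its direction. One without a call was kept if it stayed uncalled, whatever its sign. All were kept with a pseudocount of 0.1, without the filter or without robust fitting, 161 with edgeR and 170 with DESeq2. The rest were newly called there. Quantile normalization kept 148 (15 lost their call, 8 gained one and 1 that was called turned). Total-count scaling kept 155 (15 lost, 2 gained) and the fit of only the 6 libraries 153 (7 lost, 12 gained). With the neighbours' median taken off 65 moved by less than the spread between libraries, 95 by more, and 12 called ones turned. A change of sign in an uncalled difference was counted only by its size. Over all tested genes edgeR on the recovered reads called 9253 in Resistant, 11152 in MYC T58A, 10146 under the shMYC1 label and 13503 under the shMYC2 label, against 8781, 10862, 9713 and 13474 with limma. With 1 library left out, 966 of 1032 were as before, 46 lost their call and 20 gained one. Each left-out fit tests a pair of libraries against 3 and shares its spread with all groups.

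In Resistant, taking off the neighbours' median moved the core median to -0.23 and turned the called members PSMC6 (-0.20) and PSME4 (0.056). In MYC T58A the cap median was -0.0323 under quantile normalization and -0.0285 under total-count scaling. Without the neighbours' median the core stood at -0.0337 and the cap at -0.13, and the called members PSMA5 (0.24) and PSMD4 (0.12) turned. With a library left out the core median ran from -0.18 (without MYC T58A library 3) to 0.0268 (without library 2) and the cap median from -0.0842 to -0.0534.

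Under the shMYC1 label 2 members were lower with quantile normalization, 3 with total-count scaling (cap median 0.10), 0 with only the 6 libraries, and 0 to 4 with a library left out. Without the neighbours' median the called members PSMD13 (-0.0729) and PSME4 (-0.20) turned. Under the shMYC2 label the core and cap medians were 0.12 and 0.0188 with quantile normalization, which turned PSMD11 (-0.0033), and 0.087 and 0.0212 with total-count scaling. Over all tested genes 7863 were higher and 6167 lower under quantile normalization, against 6155 and 7319 in the main result. The cap median was 0.19 with edgeR and 0.14 to 0.19 with a library left out. Without the neighbours' median the core stood at 0.0248 and the cap at 0.16. The called members PSMA4 (0.0889), PSMD13 (-0.0201), PSMD3 (-0.0944), PSMD4 (0.24), PSMD8 (0.36) and PSMG1 (-0.11) turned. The causes of the moves under other scalings were not tested.

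All groups have 3 libraries, so the range of a group rests on few values. One resistant clone, hairpin labels that MYC goes against, exons shared with other genes and an unknown counting annotation limit what the differences can be tied to. Read depth limits most the members with the lowest counts, PSMC1 and PSMB10.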
